A study of Rattus norvegicus with 4 samples.

Results

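The genes described here encode the mitochondrial respiratory chain and the tricarboxylic acid (TCA) cycle. A list of 50 nuclear genes was used, which holds subunits of complexes I to IV, cytochrome c, the catalytic subunit of ATP synthase, TCA cycle enzymes with pyruvate dehydrogenase, and 3 regulators of mitochondrial genes. A gene was taken where at least 1 probe set of the array carried its symbol alone, and its value is the mean of those probe sets. This held for 45 of the 50 genes, of 14217 genes on the array. Ndufa10, Uqcrb, Cycs and Cox7a2 lay only on probe sets shared with other symbols, Fh was in no row of the annotation used, and these 5 genes were not analysed here. The 45 genes were 17 of complex I, 4 of complex II, 5 of complex III, 7 of complex IV, 1 of ATP synthase, 8 of the TCA cycle and pyruvate dehydrogenase, and 3 regulators.

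RNA was measured in 4 cultures of L6, a line of skeletal myoblasts from the Wistar rat, with 1 Affymetrix rat array each: L6-HGF sheet, L6-WT sheet, L6-HGF monolayer and L6-WT monolayer. L6-HGF cells carry human hgf, the gene of hepatocyte growth factor, from the retroviral vector pBabepuro and were selected with puromycin, and L6-WT cells are the wild type without the transgene. No empty-vector line is described, so an effect of the transgene and one of vector or selection cannot be told apart in any difference of L6-HGF from L6-WT. Sheets were grown on thermoreactive dishes, from which they come off in one piece at room temperature, and monolayers are labelled as monolayer culture. Cell density and time in culture are not described for the monolayers. Effects of these, of detachment and of the sheet format itself thus cannot be told apart in any difference of sheet from monolayer. The comparisons address what constitutive HGF did to the expression profile of the donor myoblasts in each format, and what the sheet format did in each line. The human transgene itself was not measured here.

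Complexes I and II pass electrons from NADH and succinate to ubiquinone, complex III passes them on to cytochrome c, and complex IV hands them to oxygen. The protons pumped on the way drive ATP synthase. The TCA cycle in the mitochondrial matrix supplies the NADH and succinate, and the pyruvate dehydrogenase complex feeds it with acetyl-CoA. Myoblasts are known to build up this machinery as they mature into muscle fibres, under the coactivator encoded by Ppargc1a and the factors encoded by Nrf1 and Tfam.

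Promoter sequences are shown for the 3 TCA cycle genes with the lowest difference between sheets and monolayers, averaged over both lines, and for the 3 complex I genes with the highest, since these sets stood at opposite ends of the values below. Each runs 5′ to 3′ along the gene's strand from 250 bases before to 50 after the transcription start, and comes from RefSeq on build GRCr8, which held a promoter for 38 of the 45 genes. The windows lie at chr1:143467199-143467498 for Idh2, chr12:26543792-26544091 for Mdh2, chr14:85363781-85364080 for Ogdh, chrX:121293506-121293805 for Ndufa1, chr18:28631835-28632134 for Ndufa2 and chr4:53971186-53971485 for Ndufa5. Capitals mark matches, on either strand, to CGGAAG (core of ETS factors such as GABP, on the other strand CTTCCG), to GCGCATGC (core of NRF1, on the other strand GCATGCGC) or to ACGTG (core of hypoxia-inducible factors, on the other strand CACGT).
Idh2: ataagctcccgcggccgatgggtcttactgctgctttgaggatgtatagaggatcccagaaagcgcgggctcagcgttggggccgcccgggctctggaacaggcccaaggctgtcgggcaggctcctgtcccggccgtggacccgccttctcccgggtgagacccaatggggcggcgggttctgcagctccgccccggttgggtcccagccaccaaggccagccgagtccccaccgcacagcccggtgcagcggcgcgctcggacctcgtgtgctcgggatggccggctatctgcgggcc
Mdh2: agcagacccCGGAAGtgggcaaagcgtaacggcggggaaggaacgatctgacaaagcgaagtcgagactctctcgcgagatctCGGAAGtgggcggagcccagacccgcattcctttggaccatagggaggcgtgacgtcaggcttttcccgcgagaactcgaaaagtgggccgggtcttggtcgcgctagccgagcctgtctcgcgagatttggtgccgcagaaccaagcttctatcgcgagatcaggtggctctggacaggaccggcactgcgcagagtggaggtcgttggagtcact
Ogdh: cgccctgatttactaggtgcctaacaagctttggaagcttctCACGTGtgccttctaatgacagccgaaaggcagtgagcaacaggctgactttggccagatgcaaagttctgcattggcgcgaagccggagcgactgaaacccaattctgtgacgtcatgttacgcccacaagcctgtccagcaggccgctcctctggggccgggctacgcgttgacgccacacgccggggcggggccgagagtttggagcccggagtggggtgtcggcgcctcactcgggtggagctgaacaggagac
Ndufa1: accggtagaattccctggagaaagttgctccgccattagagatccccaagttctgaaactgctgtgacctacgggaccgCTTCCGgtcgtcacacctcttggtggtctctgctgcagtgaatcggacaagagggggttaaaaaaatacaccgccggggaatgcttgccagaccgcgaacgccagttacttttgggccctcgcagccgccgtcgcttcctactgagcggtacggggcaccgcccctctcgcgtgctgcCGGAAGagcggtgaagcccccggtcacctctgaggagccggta
Ndufa2: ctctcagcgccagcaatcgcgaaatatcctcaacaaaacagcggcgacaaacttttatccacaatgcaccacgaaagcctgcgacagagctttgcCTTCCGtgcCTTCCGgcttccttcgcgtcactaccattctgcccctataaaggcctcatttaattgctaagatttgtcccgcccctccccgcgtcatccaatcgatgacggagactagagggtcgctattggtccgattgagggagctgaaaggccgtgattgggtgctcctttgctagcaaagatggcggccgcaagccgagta
Ndufa5: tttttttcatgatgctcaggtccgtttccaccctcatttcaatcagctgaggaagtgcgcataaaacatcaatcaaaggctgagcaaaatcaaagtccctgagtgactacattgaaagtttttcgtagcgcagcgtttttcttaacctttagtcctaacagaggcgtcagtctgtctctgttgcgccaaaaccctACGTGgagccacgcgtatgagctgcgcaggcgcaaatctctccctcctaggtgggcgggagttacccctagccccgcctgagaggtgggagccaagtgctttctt

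CGGAAG or its complement lay in 21 of the 38 promoters (55.3%), against 25.7% of 13193 promoters of genes on the array and 16.6% of all 33469 promoters in the table. It was present in Mdh2, Ndufa1 and Ndufa2, each with 2 matches, and no match lay in the windows of Idh2, Ogdh and Ndufa5. GCGCATGC was found in 2 of the 38 promoters (5.26%), those of Sdhb and Uqcrc1, against 4.15% of the promoters of array genes and 2.47% of all. ACGTG or its complement was found in 8 of them (21.1%), against 23.4% of the promoters of array genes and 19.3% of all. Ogdh held CACGTG, which counts as 2 overlapping matches, and Ndufa5 held 1 match. These are matches of letters only, and binding was not measured.

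The deposited values are log2 values from which the authors' centring took the median of the 4 arrays, probe set by probe set. A value of 0 is thus the middle of a gene's own 4 arrays, differences between arrays are kept, and the level of one gene cannot be set against that of another. For the same reason the presence of muscle markers could not be checked, and they are given further on only as differences. With 1 array per condition, no difference within a comparison has a replicate check or a test, and precision is limited by the number of arrays. To show the technical spread, probe sets of bacterial controls, 45 in number, differed by -0.30 to 0.34 between the sheet and the monolayer array of L6-HGF, by -0.12 to 0.49 between those of L6-WT, by -0.51 to 0.36 between the sheet arrays of L6-HGF and L6-WT, and by -0.18 to 0.35 between their monolayer arrays. Their mean differences in these 4 comparisons were 0.12, 0.20, 0.01 and 0.09, none passed 2-fold, and the median over all genes lay between -0.02 and 0.03. In such bulk RNA, fewer cells of a kind and less RNA per cell cannot be told apart.

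**Figure D1:**
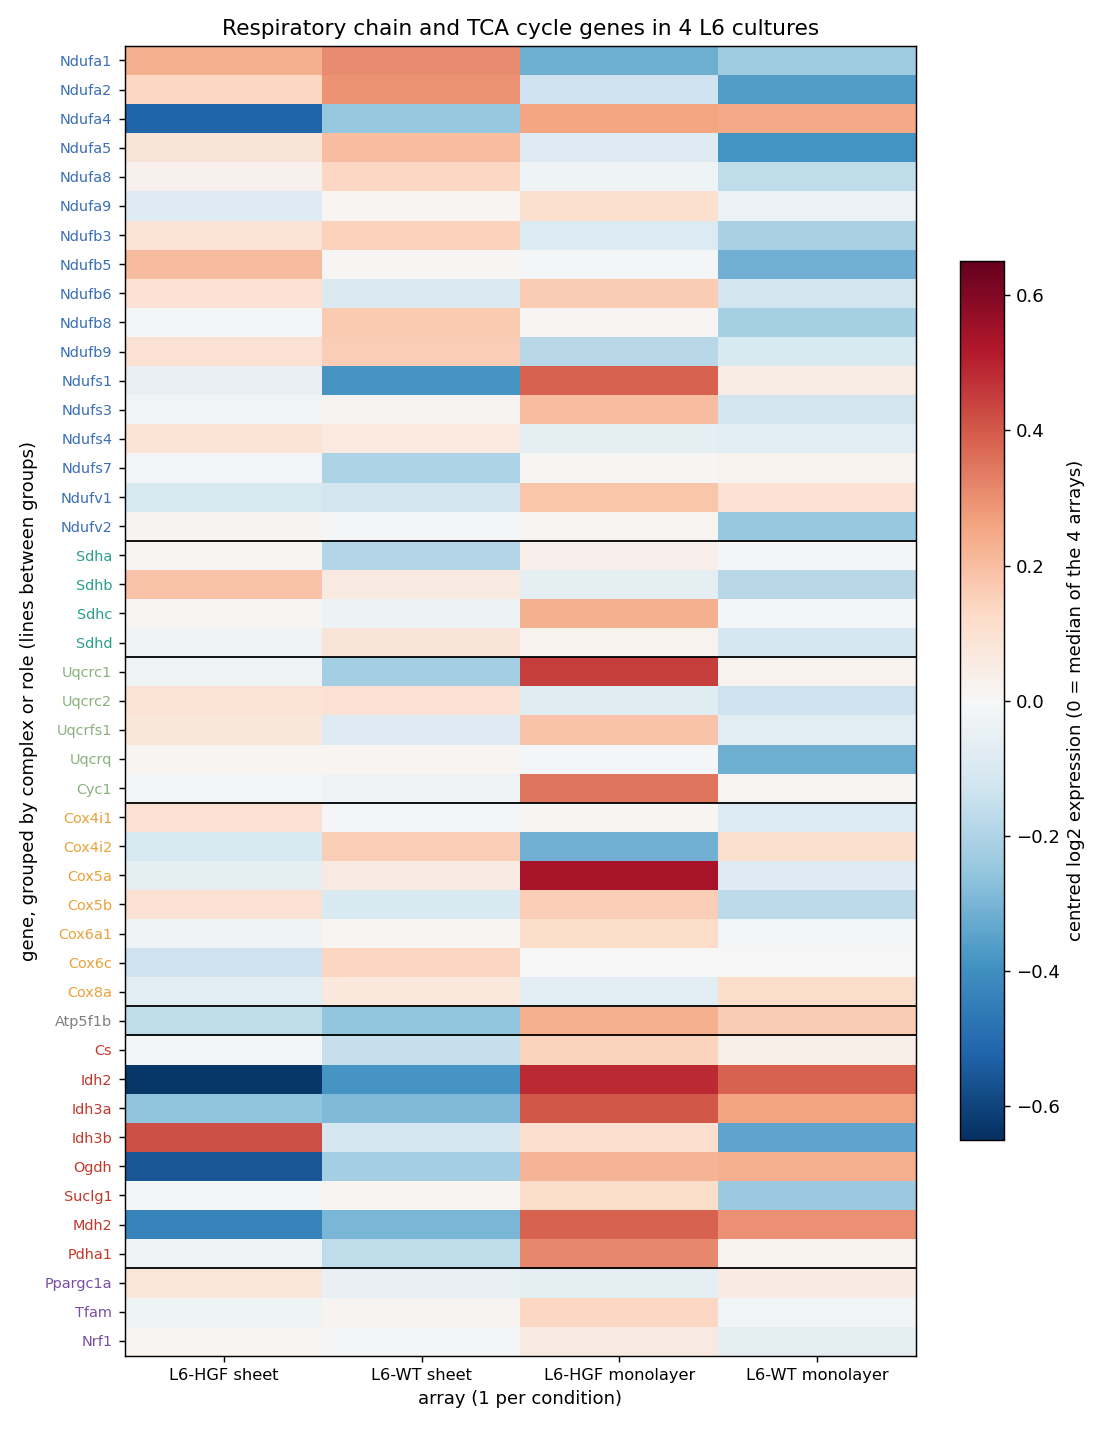
Centred log2 expression of the 45 genes (rows, grouped by complex or role) on the 4 arrays (columns), where 0 is the median of a gene's 4 arrays. The TCA cycle genes Idh2, Mdh2, Ogdh and Idh3a, with Ndufa4 of complex I, were low on both sheet arrays, from -0.63 to -0.22, and high on both monolayer arrays, from 0.22 to 0.48, and Ndufa1 ran the other way.

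Most of the 45 genes differed little. Past 2-fold, a threshold the study used for its genes, lay 1 gene in L6-HGF sheets against L6-HGF monolayers (2.22% of the 45, against 3.75% of all genes), and that gene was Idh2. In the comparison of L6-WT sheets with L6-WT monolayers 0 of 45 passed 2-fold (1.21% of all genes), in that of L6-HGF with L6-WT sheets 0 of 45 (1.44%), and in that of L6-HGF with L6-WT monolayers 0 of 45 (0.535%). The smaller differences are counted below at 1.25-fold, a limit chosen after the values were seen, which is 0.32 on the log2 scale. A difference of 0.32 lies within the range of the bacterial controls in all 4 comparisons, and one of -0.32 only in that of the sheets of L6-HGF and L6-WT.

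Between sheets and monolayers the genes spread to both sides. In L6-HGF, 11 of the 45 genes were over 1.25-fold lower in the sheet (24.4%, against 16.6% of all genes), among them 5 of the 8 TCA genes, and Ndufa1 was the 1 gene over 1.25-fold higher (2.22%, against 13.7%). Differences lay below 0 for 29 genes (64.4%, against 45.9% of all genes), with a median of -0.06. In L6-WT, 7 genes were over 1.25-fold lower in the sheet (15.6%, against 13.2% of all genes) and 6 were over 1.25-fold higher (13.3%, against 13.6%). Differences lay below 0 for 18 genes (40%, against 45.6%), with a median of 0.06. All 7 that were lower in L6-WT were also among the 11 of L6-HGF. The 6 that were higher in L6-WT were 5 accessory subunits of complex I and Uqcrq of complex III, and of these Ndufa1 alone was over 1.25-fold higher in L6-HGF as well.

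Between L6-HGF and L6-WT the differences were smaller. In sheets, 2 of the 45 genes, Idh3b and Ndufs1, were over 1.25-fold higher in L6-HGF (4.44%, against 8.42% of all genes), and Ogdh was the 1 gene over 1.25-fold lower (2.22%, against 11.5%). After quantile normalization these counts were 1 higher and 0 lower. Differences lay below 0 for 23 genes (51.1%, against 53.7%), with a median of -0.0003. In monolayers, 7 genes were over 1.25-fold higher in L6-HGF (15.6%, against 7.04% of all genes) and 1, Cox4i2, was over 1.25-fold lower (2.22%, against 6.51%). Differences lay below 0 for only 7 genes (15.6%, against 49.4% of all genes) and above 0 for the other 38. The median of the 45 was 0.13 there, and the bacterial controls had a mean of 0.09 ± 0.12 (SD over 45 probe sets) between the same 2 arrays. The part of array scaling in the median of the 45 was not tested.

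Markers of other cell types and of muscle also differed between these arrays, and their part in the differences between the 45 genes was not tested. All 8 fibroblast markers were lower in L6-HGF than in L6-WT sheets, with a median of -0.82, and 6 of 8 were lower in L6-HGF monolayers, with a median of -0.25 and Mfap5, Postn and Dpt past 2-fold. Between sheet and monolayer 5 of 8 were higher in L6-HGF, with a median of 0.53, and 6 of 8 in L6-WT, with a median of 1.42. Of the 7 muscle markers, 5 were lower in L6-HGF than in L6-WT in sheets, with a median of -0.13, and 6 in monolayers, with a median of -0.18. They ranged in sheets from -2.01 for the skeletal actin gene Acta1 to 0.76 for Des, desmin, and in monolayers from -1.88 for the embryonic myosin gene Myh3 to 0.43 for Des. Between sheet and monolayer 4 of the 7 were lower in L6-HGF, with a median of -0.05, and 4 in L6-WT, with a median of -0.23. The medians of the 4 endothelial and the 3 macrophage markers lay between -0.04 and 0.19 in all 4 comparisons.

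**Figure D2:**
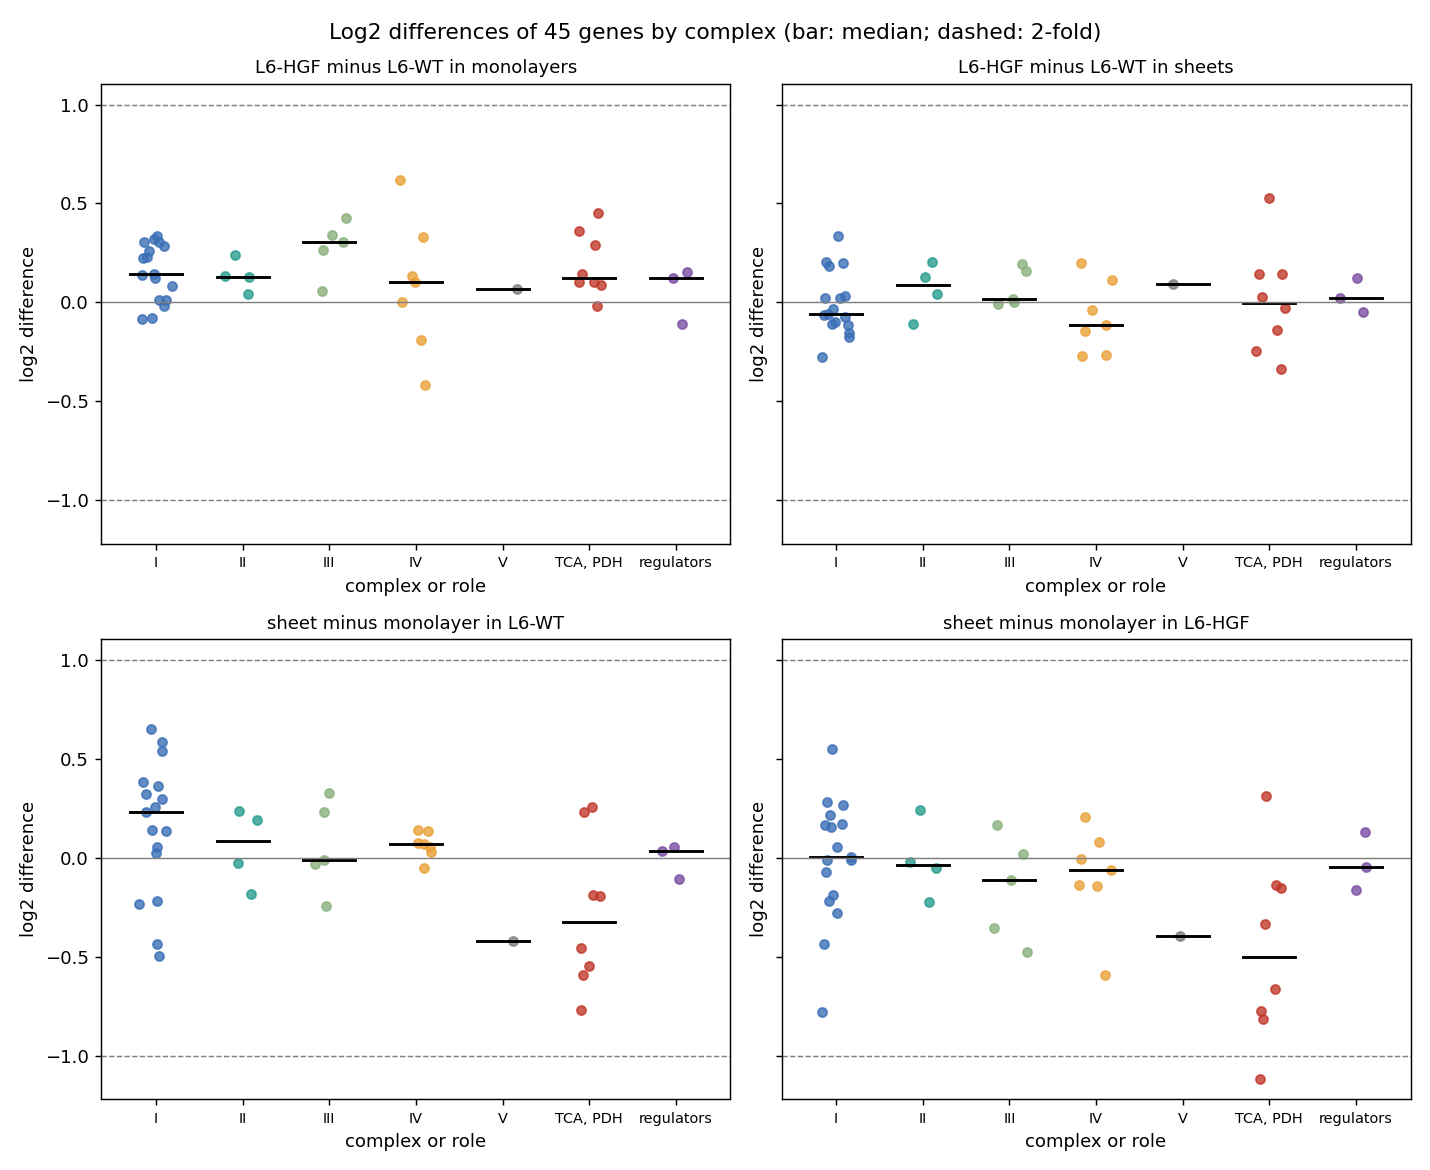
Log2 differences of the 45 genes (points) by complex or role in the 4 comparisons (panels), with the median of each group as a bar and 2-fold as dashed lines. The TCA and pyruvate dehydrogenase genes had the lowest median among the groups of several genes in both sheet comparisons, -0.50 in L6-HGF and -0.32 in L6-WT, and Idh2 in L6-HGF is the 1 point past 2-fold.

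Genes of the TCA cycle included the lowest differences of the list. Idh2, the mitochondrial NADP+-dependent isocitrate dehydrogenase, had a centred log2 value of -0.63 in the L6-HGF sheet, -0.38 in the L6-WT sheet, 0.48 in the L6-HGF monolayer and 0.38 in the L6-WT monolayer. Both sheets were thus below both monolayers, by 2.16-fold in L6-HGF and by 1.70-fold in L6-WT. Among all genes, 1.98% had a lower difference in L6-HGF and 1.37% in L6-WT. After quantile normalization of the centred values, its difference in L6-HGF was -0.94, short of 2-fold. Mdh2, the malate dehydrogenase that closes the cycle, had values of -0.43 in the L6-HGF sheet, -0.29 in the L6-WT sheet, 0.38 in the L6-HGF monolayer and 0.29 in the L6-WT monolayer, and was 1.76-fold lower in the sheet of L6-HGF and 1.50-fold lower in that of L6-WT.

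Idh3a and Ogdh, which encode subunits of the rate-setting NAD+-dependent isocitrate dehydrogenase and alpha-ketoglutarate dehydrogenase complexes, showed the same order. Idh3a had -0.26 in the L6-HGF sheet, -0.28 in the L6-WT sheet, 0.40 in the L6-HGF monolayer and 0.26 in the L6-WT monolayer, a difference between sheet and monolayer of -0.66 in L6-HGF and -0.54 in L6-WT. Ogdh had -0.55 in the L6-HGF sheet, -0.22 in the L6-WT sheet, 0.22 in the L6-HGF monolayer and 0.24 in the L6-WT monolayer, a difference of -0.77 in L6-HGF and -0.46 in L6-WT. In sheets, Ogdh was the gene of the 45 with the lowest difference of L6-HGF from L6-WT, at -0.33, and Idh2 was among the 5 lowest, at -0.25.

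Cs and Suclg1 had smaller differences. Cs, citrate synthase at the entry of the cycle, had -0.01 in the L6-HGF sheet, -0.15 in the L6-WT sheet, 0.14 in the L6-HGF monolayer and 0.04 in the L6-WT monolayer as the mean of 4 probe sets. Its probe sets did not agree in L6-HGF, where the sheet differed from the monolayer by -0.33 to 0.18, and lay between -0.37 and -0.11 in L6-WT. Suclg1, a subunit of succinyl-CoA synthetase, had -0.01 in the L6-HGF sheet, 0.01 in the L6-WT sheet, 0.12 in the L6-HGF monolayer and -0.24 in the L6-WT monolayer, so that the sheet was lower by a difference of -0.13 in L6-HGF and higher by 0.26 in L6-WT.

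Idh3b, which encodes another subunit of the same enzyme as Idh3a, ran against it. Its values were 0.42 in the L6-HGF sheet, -0.11 in the L6-WT sheet, 0.11 in the L6-HGF monolayer and -0.34 in the L6-WT monolayer. It was higher in the sheet by 0.31 in L6-HGF and by 0.24 in L6-WT, and L6-HGF was above L6-WT by 0.53 in sheets, the highest of the 45 there, and by 0.45 in monolayers. Idh3b rests on 1 probe set of the kind that can detect several transcripts of a gene. Over the 8 TCA and pyruvate dehydrogenase genes, 7 had a lower value in the sheet in L6-HGF and 6 in L6-WT, against 45.9% and 45.6% of all genes. The exceptions were Idh3b in L6-HGF, and Idh3b and Suclg1 in L6-WT.

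The wider set of 12 other genes of the cycle and of pyruvate entry, listed with earlier results of these data known, had medians nearer 0. The sheet was lower than the monolayer for 9 of the 12 in L6-HGF (45.9% of all genes), with a median of -0.21. In L6-WT it was lower for 7 of the 12 (45.6% of all genes), with a median of -0.03. The lowest of these in both lines was Pc, pyruvate carboxylase, which refills the cycle with oxaloacetate, at -0.78 in L6-HGF and -0.42 in L6-WT. The highest was Me3, mitochondrial malic enzyme, at 0.55 in L6-HGF, and Dld, the shared dehydrogenase subunit of the pyruvate and alpha-ketoglutarate complexes, at 0.36 in L6-WT.

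Pyruvate dehydrogenase itself was measured through Pdha1, its catalytic alpha subunit, which the Pdk kinases phosphorylate and thereby switch off. Pdha1 had -0.02 in the L6-HGF sheet, -0.16 in the L6-WT sheet, 0.31 in the L6-HGF monolayer and 0.02 in the L6-WT monolayer. It was 1.26-fold lower in the sheet of L6-HGF and 1.14-fold lower in that of L6-WT, and its 2 probe sets lay close together, at -0.38 and -0.28 in L6-HGF and at -0.20 and -0.17 in L6-WT. Pdk1, one of the 4 kinases, ran the other way and much further. Its values were 1.93 in the L6-HGF sheet, 0.56 in the L6-WT sheet, -0.73 in the L6-HGF monolayer and -0.56 in the L6-WT monolayer, which made it 6.33-fold higher in the sheet of L6-HGF and 2.18-fold higher in that of L6-WT.

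The kinases did not differ alike. Between sheet arrays, Pdk1 was 2.58-fold higher in L6-HGF, and in monolayers its difference was -0.17. The value of each kinase is the mean of 2 probe sets. Those of Pdk1 differed between L6-HGF and L6-WT by 0.97 and 0.22, averaged over both formats. Pdk3 had 0.82 in the L6-HGF sheet, 0.14 in the L6-WT sheet, -0.14 in the L6-HGF monolayer and -0.20 in the L6-WT monolayer, a difference between sheet and monolayer of 0.96 in L6-HGF and 0.34 in L6-WT. Pdk2 and Pdk4 had their lowest values in the L6-HGF sheet, both at -0.40. Pdk2 differed between sheet and monolayer by -0.37 in L6-HGF and -0.23 in L6-WT, and Pdk4 by -0.23 in L6-HGF and -0.02 in L6-WT. The 2 probe sets of Pdk4 had opposite directions, at 0.20 and -0.45 averaged over both lines, so its mean describes neither.

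**Figure D3:**
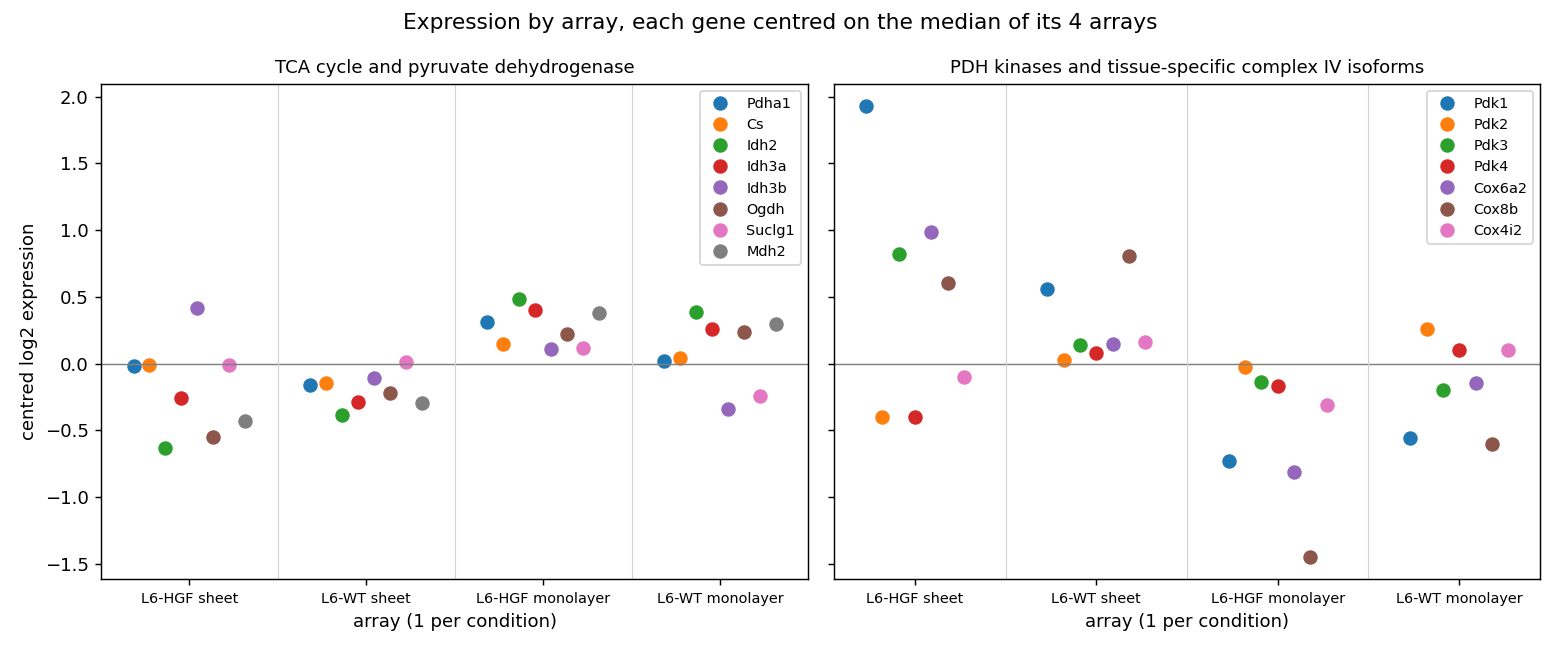
Centred log2 expression by array (horizontal axis, 1 array per condition) for the 8 TCA and pyruvate dehydrogenase genes (left) and for the Pdk kinases with 3 tissue-specific isoforms of complex IV (right), where points are genes and 0 is the median of a gene's 4 arrays. Idh2, Idh3a, Ogdh and Mdh2 lie below 0 on both sheet arrays, and Pdk1 reaches 1.93 in the L6-HGF sheet against -0.73 in the L6-HGF monolayer.

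Complex I had genes that differed in both directions between sheet and monolayer. Over its 17 measured genes the sheet was above the monolayer for 9 in L6-HGF, with a median of 0.004, and for 13 in L6-WT, with a median of 0.23. Of all genes, 45.9% were below 0 in L6-HGF and 45.6% in L6-WT. The bacterial controls had a mean of 0.20 ± 0.18 (SD over 45 probe sets) between the 2 arrays of L6-WT, and the part of array scaling in the median was not tested. The genes with the highest differences encode accessory subunits, which surround the catalytic core. Ndufa1, a small subunit of the membrane arm needed for assembly, had 0.23 in the L6-HGF sheet, 0.31 in the L6-WT sheet, -0.32 in the L6-HGF monolayer and -0.23 in the L6-WT monolayer. Both sheets were above both monolayers, by 0.55 in L6-HGF and by 0.54 in L6-WT, while L6-HGF and L6-WT differed by no more than 0.09 in size in either format.

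Ndufa2 and Ndufa5, accessory subunits of the arm that reaches into the matrix, were higher in the sheet mainly in L6-WT. Ndufa2 had 0.13 in the L6-HGF sheet, 0.29 in the L6-WT sheet, -0.13 in the L6-HGF monolayer and -0.36 in the L6-WT monolayer, a difference of 0.27 in L6-HGF and 0.66 in L6-WT. Ndufa5 had 0.08 in the L6-HGF sheet, 0.20 in the L6-WT sheet, -0.08 in the L6-HGF monolayer and -0.39 in the L6-WT monolayer, a difference of 0.17 in L6-HGF and 0.59 in L6-WT. Their lowest value was that of the L6-WT monolayer in each case. Of the membrane arm, Ndufb8 differed between sheet and monolayer by -0.01 in L6-HGF and 0.39 in L6-WT, Ndufb3 by 0.17 in L6-HGF and 0.36 in L6-WT, and Ndufb9 by 0.28 in L6-HGF and 0.26 in L6-WT.

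Ndufs1, the core subunit that carries several iron-sulfur clusters, had the opposite direction. Its values were -0.05 in the L6-HGF sheet, -0.39 in the L6-WT sheet, 0.38 in the L6-HGF monolayer and 0.05 in the L6-WT monolayer. The sheet was lower by the same 1.35-fold in both lines, and L6-HGF was 1.26-fold higher than L6-WT in sheets and in monolayers alike. Ndufv1, which binds NADH, differed between sheet and monolayer by -0.28 in L6-HGF and -0.22 in L6-WT. Ndufs7, which holds the last cluster before ubiquinone, had -0.01 in L6-HGF and -0.23 in L6-WT, and Ndufs3, another core subunit, -0.22 in L6-HGF and 0.14 in L6-WT. Ndufv2, also a core subunit, had 0.004 in L6-HGF and 0.23 in L6-WT. Of these 5 core genes, 1 was above 0 in L6-HGF and 2 were above 0 in L6-WT.

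Split after the values were seen into 5 core and 12 accessory subunits, complex I had a median difference between sheet and monolayer of -0.22 over the core genes in both lines, and over the accessory genes of 0.16 in L6-HGF and 0.31 in L6-WT. With the 18 other measured genes of complex I added, the medians were -0.11 in L6-HGF and -0.15 in L6-WT over 6 core genes, and 0.17 in L6-HGF and 0.26 in L6-WT over 29 accessory genes. In L6-WT, 25 of these 29 accessory genes were above 0 and 4 below, where 45.6% of all genes were below. In L6-HGF, 19 were above 0 and 10 below, where 45.9% of all genes were below. The accessory gene with the lowest difference was Ndufa4, whose protein, first counted with complex I, was later found to belong to complex IV. It had -0.52 in the L6-HGF sheet, -0.25 in the L6-WT sheet, 0.26 in the L6-HGF monolayer and 0.25 in the L6-WT monolayer, and was 1.72-fold lower in the sheet of L6-HGF and 1.41-fold lower in that of L6-WT.

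Complex II, succinate dehydrogenase, is the enzyme shared by the chain and the TCA cycle, and its 4 genes stayed within 1.25-fold in each of the 4 comparisons. Sdhb, the iron-sulfur subunit, was above the monolayer in both sheets, by 0.24 in each line, with 0.19 in the L6-HGF sheet, 0.06 in the L6-WT sheet, -0.06 in the L6-HGF monolayer and -0.18 in the L6-WT monolayer. Sdha, the flavoprotein that oxidises succinate, stood higher in L6-HGF, above L6-WT by 0.20 in sheets and by 0.04 in monolayers. Sdhc and Sdhd, which anchor the enzyme in the membrane, differed between sheet and monolayer by -0.22 and -0.05 in L6-HGF and by -0.02 and 0.19 in L6-WT.

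In the L6-HGF monolayer all 5 genes of complex III were above the L6-WT monolayer, with a median difference of 0.31. So were 38 of the 45 genes, among them the 4 of complex II, where 49.4% of all genes lay below 0. The bacterial controls had a mean of 0.09 between these arrays, and the part of array scaling in the median was not tested. Between L6-HGF and L6-WT sheets the median difference of complex III was 0.02. Uqcrc1, a core protein of the complex, had -0.02 in the L6-HGF sheet, -0.22 in the L6-WT sheet, 0.45 in the L6-HGF monolayer and 0.02 in the L6-WT monolayer. The L6-HGF monolayer was 1.35-fold above that of L6-WT, and the L6-HGF sheet was 1.39-fold below the L6-HGF monolayer. Cyc1, the cytochrome that passes electrons to cytochrome c, had -0.01 in the L6-HGF sheet, -0.02 in the L6-WT sheet, 0.35 in the L6-HGF monolayer and 0.01 in the L6-WT monolayer, so that the L6-HGF monolayer alone stood above the other 3 arrays. Uqcrq, a small subunit, had its outlying value in another culture, with -0.32 in the L6-WT monolayer and between -0.01 and 0.01 on the other 3 arrays. Uqcrfs1, the Rieske iron-sulfur protein, and Uqcrc2, the other core protein, stayed within 1.25-fold in all 4 comparisons.

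In complex IV, Cox5a had the largest difference between the lines in monolayers. Cox5a, a nuclear subunit on the matrix side, had -0.06 in the L6-HGF sheet, 0.06 in the L6-WT sheet, 0.53 in the L6-HGF monolayer and -0.08 in the L6-WT monolayer. The L6-HGF monolayer was 1.53-fold above the L6-WT monolayer, whereas L6-HGF sheets differed from L6-WT sheets by -0.12, and the difference of these differences, -0.73, was the lowest of the 45 genes. In L6-HGF the sheet was 1.51-fold lower than the monolayer, and in L6-WT the difference was 0.14. Cox5a rests on 1 probe set and 1 L6-HGF monolayer array.

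Subunit IV exists as a pair of isoforms. Cox4i1, the isoform of most tissues, stayed within 1.25-fold in all 4 comparisons, with 0.10 in the L6-HGF sheet, -0.01 in the L6-WT sheet, 0.01 in the L6-HGF monolayer and -0.09 in the L6-WT monolayer. Cox4i2, the isoform known from lung and from cells at low oxygen, had -0.10 in the L6-HGF sheet, 0.16 in the L6-WT sheet, -0.31 in the L6-HGF monolayer and 0.10 in the L6-WT monolayer. It was lower in L6-HGF than in L6-WT by differences of -0.27 in sheets and -0.42 in monolayers, and its monolayer difference was the lowest of the 45 genes. Between sheet and monolayer it differed by 0.21 in L6-HGF and 0.06 in L6-WT. Cox6c was also lower in L6-HGF sheets than in L6-WT sheets, by a difference of -0.27, and Cox8a, the widespread isoform of subunit VIII, was lower in L6-HGF by a difference of -0.14 in sheets and -0.19 in monolayers.

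Outside the 50 genes, larger differences were found in muscle isoforms of complex IV, for Cox8b in both lines and for Cox6a2 in L6-HGF. A further muscle isoform, Cox7a1 of subunit VIIa, differed between sheet and monolayer by only 0.15 in L6-HGF and 0.35 in L6-WT. Cox8b, the heart and skeletal muscle isoform of subunit VIII, had 0.60 in the L6-HGF sheet, 0.81 in the L6-WT sheet, -1.45 in the L6-HGF monolayer and -0.60 in the L6-WT monolayer. It was 4.15-fold higher in the sheet of L6-HGF and 2.66-fold higher in that of L6-WT. Cox6a2, the muscle isoform of subunit VIa, had 0.99 in the L6-HGF sheet, 0.15 in the L6-WT sheet, -0.82 in the L6-HGF monolayer and -0.15 in the L6-WT monolayer, and was 3.48-fold higher in the sheet of L6-HGF and 1.23-fold higher in that of L6-WT. Their widespread counterparts did not do so: Cox8a differed between sheet and monolayer by -0.003 in L6-HGF and -0.05 in L6-WT, and Cox6a1 by -0.14 in L6-HGF and 0.03 in L6-WT. Over the 12 other genes of complexes III and IV, the sheet was above the monolayer for 11 in L6-HGF, with a median of 0.30, and for 12 in L6-WT, with a median of 0.31. It was below for 1 in L6-HGF and 0 in L6-WT, against 45.9% and 45.6% of all genes. The bacterial controls had means of 0.12 in L6-HGF and 0.20 in L6-WT between the same arrays. The part of array scaling in these medians was not tested.

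ATP synthase was represented by Atp5f1b, the catalytic beta subunit. It had -0.16 in the L6-HGF sheet, -0.26 in the L6-WT sheet, 0.23 in the L6-HGF monolayer and 0.16 in the L6-WT monolayer. Both sheets were below both monolayers, by 1.31-fold in L6-HGF and 1.34-fold in L6-WT, and L6-HGF differed from L6-WT by 0.09 in sheets and 0.07 in monolayers. Over the 13 other genes of ATP synthase the median was -0.06 in L6-HGF, with 8 of 13 lower in the sheet (45.9% of all genes). In L6-WT it was 0.14, with 3 of 13 lower (45.6% of all genes). Those 3 were also lower in L6-HGF: Atp5f1a, the alpha subunit, differed by -0.48 in L6-HGF and -0.15 in L6-WT, Atp5mc3, a subunit of the membrane ring, by -0.51 in L6-HGF and -0.28 in L6-WT, and Atp5f1d, a subunit of the central stalk, by -0.43 in L6-HGF and -0.30 in L6-WT.

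As means of their probe sets, the 3 regulators stayed within 1.25-fold in all 4 comparisons. Ppargc1a, which encodes the coactivator PGC-1alpha, had 0.08 in the L6-HGF sheet, -0.05 in the L6-WT sheet, -0.06 in the L6-HGF monolayer and 0.05 in the L6-WT monolayer as the mean of 3 probe sets. Single probe sets of Ppargc1a differed by -0.04 to 0.35 between the sheet and the monolayer of L6-HGF, and by -0.22 to -0.001 between those of L6-WT. Tfam, the factor that packs and transcribes mitochondrial DNA, had -0.03 in the L6-HGF sheet, 0.02 in the L6-WT sheet, 0.13 in the L6-HGF monolayer and -0.02 in the L6-WT monolayer. Nrf1, nuclear respiratory factor, had 0.02 in the L6-HGF sheet, -0.01 in the L6-WT sheet, 0.06 in the L6-HGF monolayer and -0.07 in the L6-WT monolayer. Its 3 probe sets spread further than these means, from -0.15 to 0.12 between the sheet and the monolayer of L6-HGF and from -0.16 to 0.29 between those of L6-WT. Between the monolayers of L6-HGF and L6-WT they ranged from -0.20 to 0.35. Among 15 other regulators, the lowest difference between sheet and monolayer was that of Pprc1, a relative of Ppargc1a, at -0.65 in L6-HGF and -0.54 in L6-WT, and 0 of 15 passed 2-fold in any of the 4 comparisons.

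The 98 other measured genes were listed with earlier results of these data known, so their counts cannot show enrichment over all genes. Of them, 7 passed 2-fold between the sheet and the monolayer of L6-HGF (3.75% of all genes did) and 4 between those of L6-WT (1.21% of all genes), all of them higher in the sheet. Beside Pdk1, Cox8b and Cox6a2 they were Bnip3 and Bnip3l, receptors for the removal of mitochondria by autophagy, Higd1a, a small protein that binds the respiratory chain at low oxygen, and Mxi1, a repressor of MYC targets. The last 4 came from a set of 7 listed as mitophagy and hypoxia-linked genes, which also held 2 of the 4 in L6-WT. Bnip3 was the highest, with 2.03 in the L6-HGF sheet, 0.85 in the L6-WT sheet, -0.88 in the L6-HGF monolayer and -0.85 in the L6-WT monolayer. It was 7.54-fold higher in the sheet of L6-HGF, 3.26-fold higher in that of L6-WT, and 2.26-fold higher in L6-HGF sheets against L6-WT sheets. Higd1a was 4.56-fold higher in the sheet of L6-HGF and 2.63-fold higher in that of L6-WT. Mxi1 was 2.91-fold higher in the sheet of L6-HGF and 1.64-fold higher in that of L6-WT, and Bnip3l was 2.75-fold higher in L6-HGF and 1.55-fold higher in L6-WT. The 2 genes past 2-fold between L6-HGF and L6-WT sheets were Pdk1 and Bnip3 (1.44% of all genes passed), and 0 of 98 passed it in monolayers (0.535% of all genes). After quantile normalization of the centred values neither stayed past 2-fold between the sheets, at 0.80 for Pdk1 and 0.50 for Bnip3. That step gives all arrays the same spread of centred values, so by itself it can draw in large values of a widely spread array.

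Between sheet and monolayer, 17 of the 45 genes were lower in both lines and 15 were higher in both, so that the sign was shared by 71.1%, against 70.8% of all genes. The number of genes that had a lower difference in L6-HGF than in L6-WT was 31 (68.9%, against 52.4% of all genes). Pearson's r between the 2 lines was 0.83 and Spearman's rho 0.78 across the 45 genes, against 0.63 and 0.58 across all 14217, where genes are not independent replicates and the 2 differences come from 4 separate arrays. For the difference of L6-HGF from L6-WT in the 2 formats, r was 0.42 and rho 0.34 across the 45 genes, against 0.25 and 0.22 across all genes. The 5 genes with the lowest difference between sheet and monolayer were Idh2, Mdh2, Ndufa4, Ogdh and Idh3a in L6-HGF and in L6-WT alike.

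**Figure D4:**
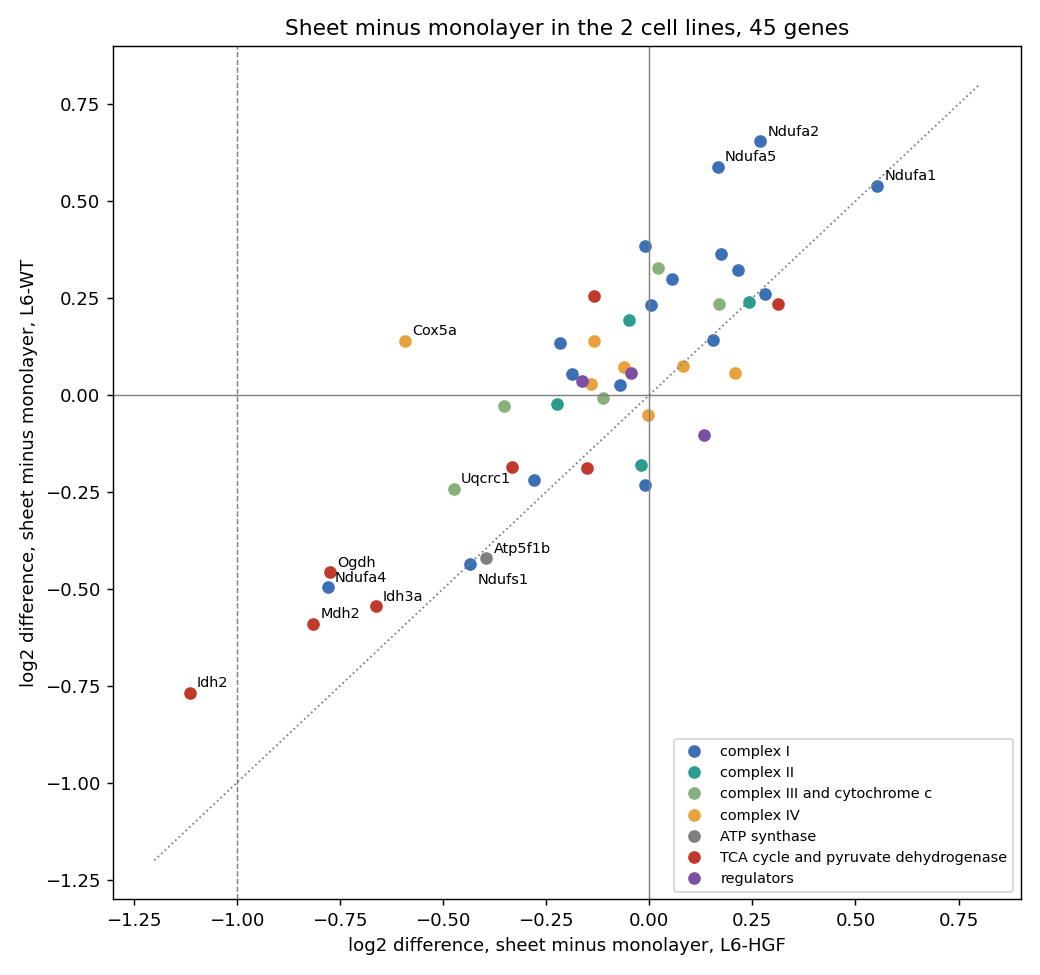
Log2 difference between sheet and monolayer for the 45 genes (points, coloured by complex or role), in L6-HGF on the horizontal axis and in L6-WT on the vertical axis, with equal values on the dotted line and 2-fold in L6-HGF on the dashed line. Idh2, Mdh2, Ogdh, Ndufa4 and Idh3a are lowest in both lines, Ndufa1 lies near the dotted line at 0.55 and 0.54, and Cox5a stands apart at -0.59 and 0.14.

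A test was possible only for a difference shared by both lines or both formats. Its error comes from how far the lines or formats disagree in that difference, not from replicate arrays. The p-values and confidence intervals below therefore do not measure the spread between replicates. In a limma model with terms for cells and format, which leaves 1 residual degree of freedom, 0 of 31042 probe sets passed an adjusted p of 0.05 for the sheet effect (0% called), with 6333 at an unadjusted p under 0.05 (20.4%). Of the 56 probe sets of the 45 genes, 0 passed the adjusted limit, and 9 that were lower and 2 that were higher in sheets had an unadjusted p under 0.05, together 19.6%, close to the share of all probe sets. Idh2 had a sheet effect of -0.94 (95% confidence interval -1.32 to -0.56, limma adjusted p = 0.16), Mdh2 of -0.70 (-1.03 to -0.37, limma adjusted p = 0.16), and Ndufa1 of 0.55 (0.26 to 0.83, limma adjusted p = 0.17). For the cell line effect, L6-HGF against L6-WT, 0 of 31042 probe sets passed (0% called) and 2977 had an unadjusted p under 0.05 (9.59%). Of the 56 probe sets 3 did so (5.36%), those of Idh3b and Ndufs1 higher and that of Cox4i2 lower in L6-HGF. Idh3b had an effect of 0.49 (0.20 to 0.78, limma adjusted p = 0.51).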

How the data were processed

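RNA of 4 cultures was hybridised to Affymetrix rat arrays, 1 per condition, so that no paired analysis was possible and precision is limited by the number of arrays. The deposited log2 values were made by the authors with RMA, which the submitters' processing notes name, and were normalized to median. Its version is not given in the sources used here. In the file every probe set has a median of 0 over its 4 arrays within rounding, so signal levels are lost and no filter on dim probe sets could be made. Of 31099 probe sets, 57 controls were left out, and 31042 were compared. An annotation of the array gave 1 symbol for 20826, several for 436, and 14217 genes, each the mean of its probe sets.

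The members and lists were chosen with earlier results of these data known. Named genes were the regulators, Cox4i1 and Cox4i2, the entry and rate-setting TCA genes, the 5 highest and 5 lowest members in each comparison, members past 2-fold, and of the other pathway genes the Pdk kinases and those past 2-fold. The remaining names were chosen after their values were seen. limma (version 3.58.1, R 4.3.3, lmFit and eBayes) was fitted to all probe sets, with Benjamini-Hochberg adjustment. The other steps used Python 3.11.15 with pandas 2.3.3, numpy 2.4.6 and matplotlib 3.10.9. The model was also run on simulated data with a shift far larger than the differences of the members. That run does not show power or error at their sizes. The alternatives were quantile normalization, array medians subtracted, the median of probe sets, probe sets that can detect several transcripts left out, probe sets counted singly, and for limma a robust fit, a fit on genes and a fit without the other term.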

Additional observations from a re-analysis of the deposited data

Results flagged for a closer look

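For Cox6a2, the muscle isoform of subunit VIa of complex IV, the difference of L6-HGF from L6-WT had opposite directions in the 2 formats. It was 0.84 in sheets and -0.67 in monolayers (log2). For Higd1a, a small protein of the respiratory chain, it was 0.41 in sheets and -0.38 in monolayers. Each value rests on 1 array per condition, and the difference between the formats was not tested. After quantile normalization the difference of Higd1a in sheets was 0.03.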

How the results depend on the processing

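Of 71 summary values computed under an alternative, 68 stayed within 1.5 times the count or, for medians, within 1 SD of the bacterial control probe sets. The SDs were 0.12 to 0.22 and the medians -0.15 to 0.13, so that some medians could change sign within this limit. The median between L6-HGF and L6-WT sheets did so, from -0.0003 to 0.007 with array medians subtracted. After quantile normalization of the centred values, 0 of the 45 genes passed 2-fold between the sheet and the monolayer of L6-HGF, against 1, with Idh2 at -0.94. Since this step gives all arrays the same spread of centred values, it can by itself draw in large values of a widely spread array. With each probe set counted by itself, 11 of 56 lay below 0 between L6-HGF and L6-WT monolayers, against 7 of 45 genes. Those 2 counts have unlike totals, since 7 genes have several probe sets. With limma fitted on genes, 2 passed the adjusted limit for the sheet effect, Dpt and Txnip, neither one of the 45 genes, against 0 probe sets. The causes of the other changes were not tested. Of 2276 values of single genes, 2258 moved by less than 1 SD of these controls and 18 moved by more, 16 of them after quantile normalization. Of the 45 genes, those past 1.25-fold all kept their sign where they were measured. After quantile normalization the count over 1.25-fold higher in L6-HGF monolayers against L6-WT monolayers was 11, against 7, and in sheets 1 was higher and 0 lower, against 2 and 1. No paired analysis was possible because each condition has 1 array. No array could be left out for the same reason.

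The centred values hold no signal over background, so dim and bright probe sets could not be told apart, and 38 of the 45 genes rest on 1 probe set each.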
